A study of Mus musculus with 15 samples.

Results

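Livers of Fkbp5 knockout (KO) mice on an ethanol diet were compared with livers of wild-type (WT) mice on the same diet, using 8 of the 15 RNA libraries of the series. The 8 were chosen by their sample titles: 4 libraries titled Fkbp5 KO with ethanol diet plus binge, and 4 titled WT with the same treatment. The KO mice were C57BL/6 animals labelled Fkbp5 KO (Fkbp5-/-), and the WT mice were C57BL/6 animals titled WT, of which 3 also have a wild-type genotype field. Both groups were fed a liquid diet in which ethanol was stepped up to 5% and then held for 10 days. All 8 mice then received 1 gavage of ethanol at 5 g/kg, and livers were collected 9 hours later. The control diet groups, which carried 3 KO and 4 WT libraries and a maltose gavage, served as a second, separate set of KO and WT livers. The labels name no tissue-specific driver for the deletion. How the allele was made, whether the controls were littermates, and the age and sex of the mice are not given in the sources used here.

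Fkbp5 encodes FKBP51, an immunophilin that joins HSP90 complexes and holds the glucocorticoid receptor in a state of low hormone affinity. Its own gene is a target of that receptor, so that it is part of a feedback loop in the stress response. In the liver, a diet and binge of this kind is used to model early alcohol-associated injury, with fat accumulation and recruitment of neutrophils by chemokines such as Cxcl1. The title of the series names the Hippo pathway, a kinase cascade that restrains the coactivators YAP and TAZ and their TEAD partners.

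Expression was given as FPKM, in which fragments on a gene are divided by transcript length and by library size, and no counts were used. From the values that 1 fragment gives in long transcripts, the 8 libraries held about 23200000 to 29700000 fragments each. Correlations between libraries of a group, across genes on the log2 scale, were between 0.908 and 0.970 in KO livers and between 0.907 and 0.947 in WT livers. Hepatocyte markers were abundant in all 8 livers, with the exception that Alb, the gene of serum albumin, was listed at 0 in KO replicate 3 and at 12856 to 17546 FPKM in the other 7. Since albumin is made by every liver, that value was not read as absence. The labels of WT replicate 4 conflict: the title says WT and the genotype field says KO. It was grouped by its title, and its Fkbp5 level of 45.2 FPKM lay among the WT livers. With this library moved to the KO group limma called 0 genes, while 1617 had an unadjusted p under 0.05, against 692 as grouped. With it left out 11 genes were called and 1264 had an unadjusted p under 0.05. Xist, which is expressed from the inactive X chromosome, stood above 10 FPKM in 1 of 4 KO and 2 of 4 WT livers, and Y-linked genes were expressed in the other 3 KO and 2 WT livers. Replicates are separate mice. The limma p-values rest on a spread per gene estimated within the groups of all 15 libraries, control diet livers included. The permutation test used only the 8 ethanol livers.

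Few genes separated the genotypes on the ethanol diet. The test covered 13840 genes that reached 1 FPKM in 3 or more of the 15 libraries. Of these, limma called 14 at an adjusted p under 0.05, which is 0.101% of those tested. Among the called genes, 11 were higher in KO livers (0.0795% of genes tested) and 3 were lower (0.0217%). At an unadjusted p under 0.05 there were 692 genes, or 5.00%, and in 338 genes (2.44%) the 4 KO and 4 WT values did not overlap. All 14 called genes were among those without overlap. The median log2 difference over all genes was -0.02, and the median gene had a 95% interval of 0.35 on either side of its log2 difference. Differences are on the scale of log2(FPKM + 1), which understates the change of genes with low values. In 202 genes the difference was beyond 1 log2 unit in either direction, and 8 of those were called.

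**Figure D1:**
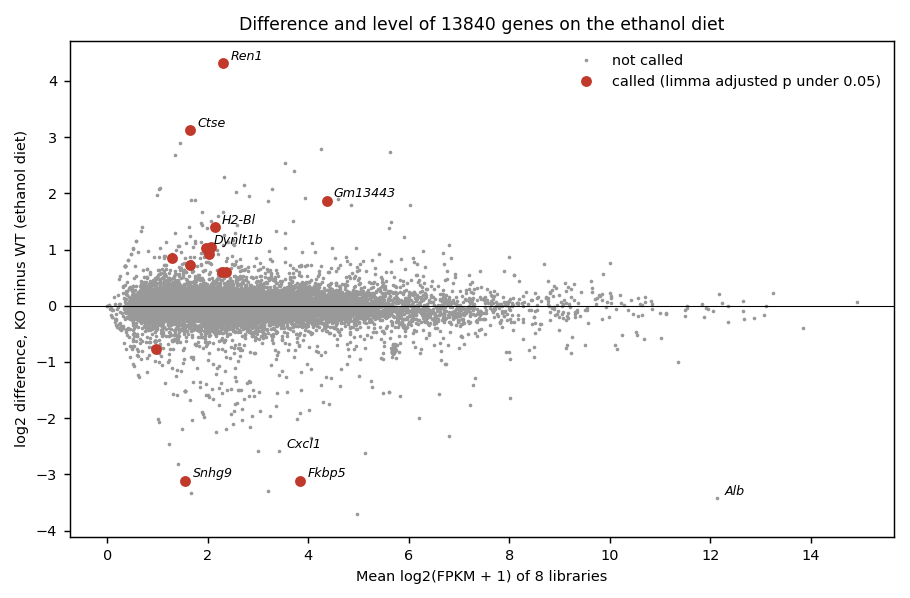
The log2 difference between KO and WT livers on the ethanol diet (vertical axis) against the mean log2(FPKM + 1) of the 8 libraries (horizontal axis) for 13840 genes, with the 14 called genes as large red points. The called genes lie at low to middle levels, while Cxcl1 at -2.59 and Alb at -3.42 were not called. The positions of Snhg9 and Alb rest on values listed at 0.

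The targeted gene was reduced in each KO liver. Fkbp5 (chromosome 17, 28398753 to 28486149, GRCm38) had 5.41, 4.97, 3.20 and 2.45 FPKM in KO replicates 1 to 4, against 54.5, 23.9, 47.9 and 45.2 FPKM in WT replicates 1 to 4. The highest KO value lay below the lowest WT value. The mean was 4.01 ± 1.41 FPKM in KO livers and 42.9 ± 13.2 FPKM in WT livers (SD, n = 4 each), a log2 difference of -3.12 with a 95% interval of -3.94 to -2.29 (limma adjusted p = 0.00568). An exact permutation test gave p = 0.0286, 2-sided, which is the smallest that 70 arrangements of 8 livers allow. KO livers kept a signal of about 258 to 573 fragments on the gene. Whether it comes from a part of the gene outside the deleted one was not tested, since the tables hold no exon values.

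Ren1 and Ctse, which lie close together on chromosome 1, had the 2 most positive differences of all genes tested. Ctse encodes cathepsin E, an intracellular aspartic protease of stomach and immune cells, and Ren1 encodes renin, the protease of the kidney that releases angiotensin I. Ctse (chromosome 1, 131638314 to 131675507) had 9.09, 3.38, 19.6 and 7.14 FPKM in KO livers, against 0.0212, 0.0188, 0.174 and 0.0621 FPKM in WT livers. The WT values correspond to about 1, 1, 9 and 3 fragments, so that Ctse was close to undetected in WT livers and plainly detected in every KO liver. Its log2 difference was 3.12 with a 95% interval of 2.38 to 3.86 (adjusted p = 0.00298), and the ratio of mean FPKM was 142. Ren1 (chromosome 1, 133350674 to 133360320) had 18.8, 5.31, 42.9 and 42.3 FPKM in KO livers, against 0.167, 0.0295, 0.273 and 0.000 FPKM in WT livers. About 211 to 1814 fragments fell on Ren1 in KO livers and 0 to 10 in WT livers. The log2 difference was 4.31, from 3.23 to 5.39 (adjusted p = 0.00387), with a spread among KO livers of 18.5 FPKM around a mean of 27.4. Some mouse strains carry a second renin gene, Ren2, whose reads would align to Ren1. Whether these mice, of the strain named at the start, carry Ren2 was not tested. The level may therefore be that of renin sequence rather than of 1 gene.

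Most genes around Ctse and Ren1 were not called. Of 81 genes tested within 5 Mb of Ctse, a window chosen after the values were seen, these 2 were called, 4 (4.94%) had an unadjusted p under 0.05, against 5.00% of all genes, and 5 (6.17%) had groups without overlap, against 2.44%. Pm20d1, which encodes an enzyme that joins fatty acids to amino acids and lies between Ctse and Ren1, had 31.3 ± 6.23 FPKM in KO livers and 18.6 ± 3.73 FPKM in WT livers (SD, n = 4 each) without overlap, and was not called (log2 difference 0.72, adjusted p = 0.236).

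The promoters of Ren1, which had the most positive log2 difference, and of the targeted gene Fkbp5 are shown for orientation, from 250 bases before to 50 after the start in the reference genome (RefSeq, GRCm38.p6, each on the strand of its gene). Capitals mark TATAAA, the core of a TATA box. Renin has 1 match and Fkbp5 none on either strand. Of 32851 promoters of the same length, 13.6% hold this motif. AGAACA, a core of the sites that the glucocorticoid receptor binds, was searched too and had no match in either window, while 19.0% of promoters hold it. The receptor sites known for Fkbp5 lie in introns, outside this window.
Ren1, chr1:133350424-133350723, plus strand: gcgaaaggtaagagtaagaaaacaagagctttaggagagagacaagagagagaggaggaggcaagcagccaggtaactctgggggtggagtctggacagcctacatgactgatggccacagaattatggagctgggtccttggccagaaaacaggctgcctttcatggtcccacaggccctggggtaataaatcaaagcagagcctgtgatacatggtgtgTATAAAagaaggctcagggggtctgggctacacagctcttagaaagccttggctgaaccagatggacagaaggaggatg
Fkbp5, chr17:28486100-28486399, minus strand: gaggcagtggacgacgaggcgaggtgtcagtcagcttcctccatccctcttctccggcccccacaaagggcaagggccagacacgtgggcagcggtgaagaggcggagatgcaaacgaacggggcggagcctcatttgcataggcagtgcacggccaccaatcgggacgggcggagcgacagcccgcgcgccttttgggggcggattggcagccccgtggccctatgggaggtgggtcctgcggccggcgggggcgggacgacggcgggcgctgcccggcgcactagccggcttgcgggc

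Chromosome 17, which carries Fkbp5, held 7 of the 14 called genes. Of 683 genes tested there, 11.71% had an unadjusted p under 0.05 and 7.32% had groups without overlap, against 4.65% and 2.19% of the 13157 genes elsewhere. The share depended on where a gene lay. Of the 42 genes 20 to 30 Mb before Fkbp5, 28.6% had groups without overlap, of the 52 genes 10 to 20 Mb before it 17.3%, and of the 136 genes within 10 Mb before it 10.3%. Among 190 genes within 10 Mb after Fkbp5 the share was 2.6%, among 73 genes 10 to 20 Mb after it 5.5%, and among the 189 genes further away 2.6%. These differences ran in both directions, and the median of all genes of the chromosome was -0.007.

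**Figure D2:**
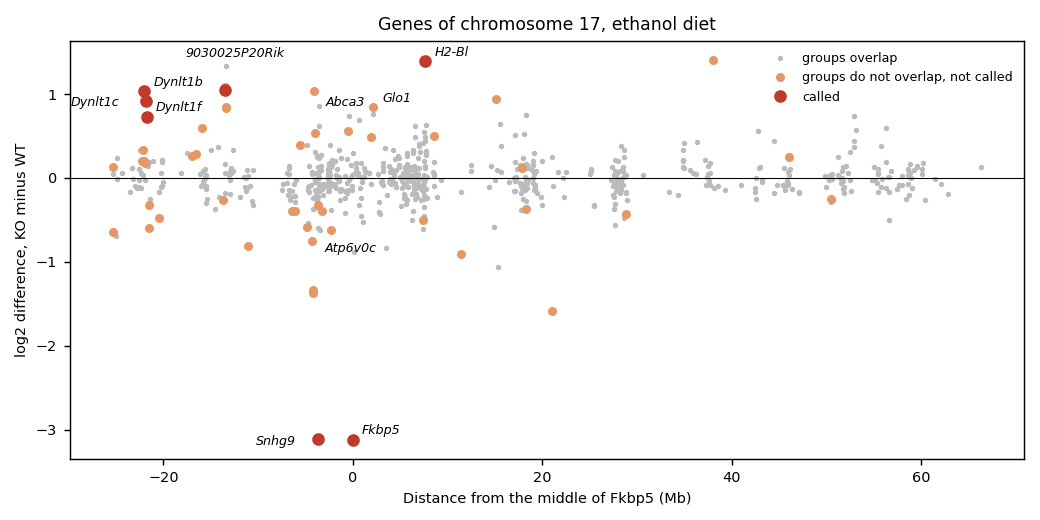
The log2 difference between KO and WT livers on the ethanol diet (vertical axis) for the genes of chromosome 17 by their distance from Fkbp5 in Mb (horizontal axis), with called genes in red and genes without overlap between groups in orange. Marked genes are densest between the start of the chromosome and Fkbp5, with the Dynlt1 genes near -22 Mb. Snhg9 is drawn at its fitted difference, although it was listed at 0 in the KO livers.

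The Dynlt1 genes encode a light chain of cytoplasmic dynein, the motor that carries cargo towards the minus end of microtubules. The called members of this family were all higher in KO livers. Dynlt1a, a further member, is not among the called genes, and its values are not given here. Dynlt1b had 4.99, 4.58, 5.62 and 3.45 FPKM in KO livers, against 1.74, 2.44, 1.28 and 1.63 FPKM in WT livers, so that the lowest KO liver lay above the highest WT liver. Its log2 difference was 1.03 with an SE of 0.14 (adjusted p = 0.0106). Dynlt1c followed with 0.92 and Dynlt1f with 0.73, and Dynlt1-ps1, a processed pseudogene on chromosome 6, with 0.86 (adjusted p = 0.0124, 0.0205 and 0.0124). These are not independent measurements. In the GENCODE transcripts, 83.2% of all stretches of 50 bases of Dynlt1b, 76.3% of Dynlt1c, 93.1% of Dynlt1f and all of Dynlt1-ps1 recur in another gene of the family. Which copies gave the extra reads cannot be told from these tables.

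Other called genes of chromosome 17 were H2-Bl, Snhg9 and 9030025P20Rik. H2-Bl, a transcribed pseudogene of the class I histocompatibility region at 36080189 to 36084249, had 5.75, 4.04, 6.59 and 9.07 FPKM in KO livers, against 1.96, 1.75, 1.53 and 1.67 FPKM in WT livers. The difference was 1.39 on the log2 scale (adjusted p = 0.0114), and reads shared with other class I genes make its level uncertain. 9030025P20Rik, a protein-coding gene with a provisional symbol, had 5.17 ± 1.41 FPKM in KO livers and 1.95 ± 0.501 FPKM in WT livers (SD, n = 4 each; log2 difference 1.05, adjusted p = 0.0355). Snhg9, a short host gene of a small nucleolar RNA, was listed at 0 in all 4 KO livers, against 5.63, 14.9, 3.43 and 11.0 FPKM in WT livers (adjusted p = 0.0106). It lies from 24719531 to 24719965, just before Rps2 in the coordinates of the table. In GENCODE a longer Rps2 transcript spans it on the opposite strand. Rps2 encodes a protein of the small ribosomal subunit. Whether reads were assigned by strand is not given in the sources used here. Rps2 itself had 117 ± 5.42 FPKM in KO livers and 147 ± 14.5 FPKM in WT livers (SD, n = 4 each), a log2 difference of -0.32 that was not called (adjusted p = 0.868).

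Among the other genes of chromosome 17, Glo1 and Atp6v0c came closest to the threshold. Glo1, which encodes the glyoxalase that detoxifies methylglyoxal, had 151, 145, 154 and 163 FPKM in KO livers, against 91.1, 87.4, 90.8 and 72.4 FPKM in WT livers. The 2 groups were far apart, and the log2 difference of 0.84 had an adjusted p of 0.059. Atp6v0c, a membrane subunit of the vacuolar proton pump, had the same adjusted p of 0.059 at a log2 difference of -0.75, with 26.1 ± 2.16 FPKM in KO livers and 45.1 ± 8.01 FPKM in WT livers (SD, n = 4 each). Abca3, a lipid transporter, had a difference of 1.03 (adjusted p = 0.164), and Uhrf1bp1, 0.6 Mb before Fkbp5, one of 0.56 (adjusted p = 0.176). In the list of genes beside Fkbp5, 28 of 46 were tested, 1 was called lower, which was Fkbp5 itself, and the median was 0.03. In this list 8 genes (28.6%) had an unadjusted p under 0.05, against 5.00% of all genes, of which 4 were higher and 4 lower. Groups without overlap were found in 4 (14.3%), Fkbp5 included, against 2.44% of all genes. Just inside the threshold stood LOC108168916, on chromosome 3, with an adjusted p of 0.036 and 9030025P20Rik with 0.0355. In 15 fits that each left out 1 library, LOC108168916 was called in 3 and 9030025P20Rik in 2.

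Away from chromosomes 1 and 17, the called genes other than Dynlt1-ps1 carry provisional names. Gm13443 (chromosome 2, 35340338 to 35340987) had 36.6, 35.6, 39.1 and 42.3 FPKM in KO livers, against 10.4, 10.1, 10.1 and 8.59 FPKM in WT livers. The spread within each group was small, and the log2 difference of 1.87 had the lowest adjusted p of all genes (1.31e-05). LOC108169072 on chromosome 5 differed by 0.60 and Gm9825 on chromosome 6 by 0.59 (adjusted p = 0.0124 and 0.0209). LOC108168916 on chromosome 3 was lower, at 0.518 ± 0.227 FPKM in KO livers and 1.57 ± 0.259 FPKM in WT livers (SD, n = 4 each; log2 difference -0.77, adjusted p = 0.036). The role of these genes is not known to the annotation used.

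**Figure D3:**
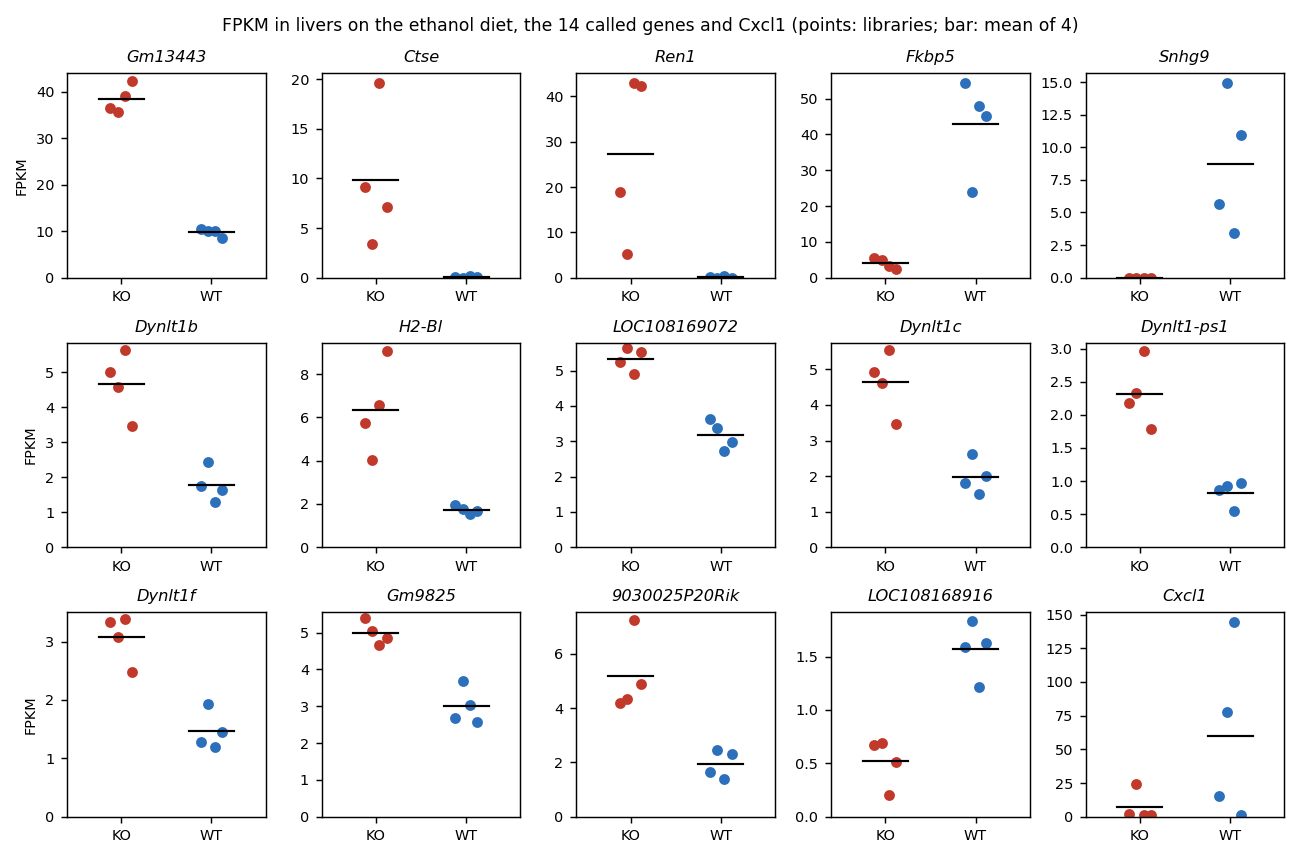
FPKM (vertical axis, from 0) in 4 KO livers (left, red) and 4 WT livers (right, blue) on the ethanol diet for the 14 called genes and Cxcl1, with points for libraries and bars for means. In the 14 called genes the groups do not overlap, while the Cxcl1 values of KO livers (1.16 to 24.4) overlap those of WT livers (1.58 to 145).

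The control diet livers, which share no library with the ethanol livers, gave a second set of differences between KO and WT. The p-values of both diets use the same spread per gene, estimated from all libraries. A gene with a small spread is therefore favoured on both diets, and the calls on both are not independent. Of the 14 genes called on ethanol, 13 had the same direction on the control diet and 7 were also called there, which is 28.0% of the 25 control diet calls (0.181% of genes tested). The 7 were Ctse, Gm13443, Dynlt1b, Dynlt1c, Dynlt1-ps1, 9030025P20Rik and LOC108169072. Ctse had 10.0 ± 2.93 FPKM in KO livers (SD, n = 3) and 0.199 ± 0.169 FPKM in WT livers (SD, n = 4) on the control diet, a log2 difference of 3.17, close to 3.12 on ethanol. Gm13443 differed by 1.95 on the control diet and 1.87 on ethanol. Fkbp5 differed by -2.13 on the control diet (adjusted p = 0.0702). Of the 25 genes called on the control diet, 24 had the same direction on ethanol. The share of all genes tested with the same direction on both diets was not set beside these counts. Of the 15 lower ones there, 11 belong to the list of pancreatic acinar markers, such as Cela2a, and the other 4 are further copies of the pancreatic amylase gene Amy2a.

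With all 15 libraries weighted equally, no gene passed a test of the difference between the 2 diets. In the interaction, limma called 0 of 13840 genes, with 553 at an unadjusted p under 0.05 and a lowest adjusted p of 0.309. Among the control diet livers KO replicate 1 stood apart, with 59.3% of its summed FPKM in 10 genes, against 19.7% to 28.5% in the other 14 libraries. Without it 43 genes were called in the interaction, and with library weights 7. Ren1 was the called gene whose difference varied most between diets. In KO livers on the control diet it had 0.792, 4.01 and 1.06 FPKM, against 0.0282, 0.0286, 0.205 and 0.000 FPKM in WT livers, a log2 difference of 1.32 that was not called. Every KO liver on ethanol lay above every KO liver on the control diet, and the gap between 4.31 and 1.32 had an SE of 0.74 (adjusted p = 0.411). LOC108168916 was the only called gene with an opposite sign, at 0.26 on the control diet, and its interaction was -1.02 with an SE of 0.19 (adjusted p = 0.309).

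**Figure D4:**
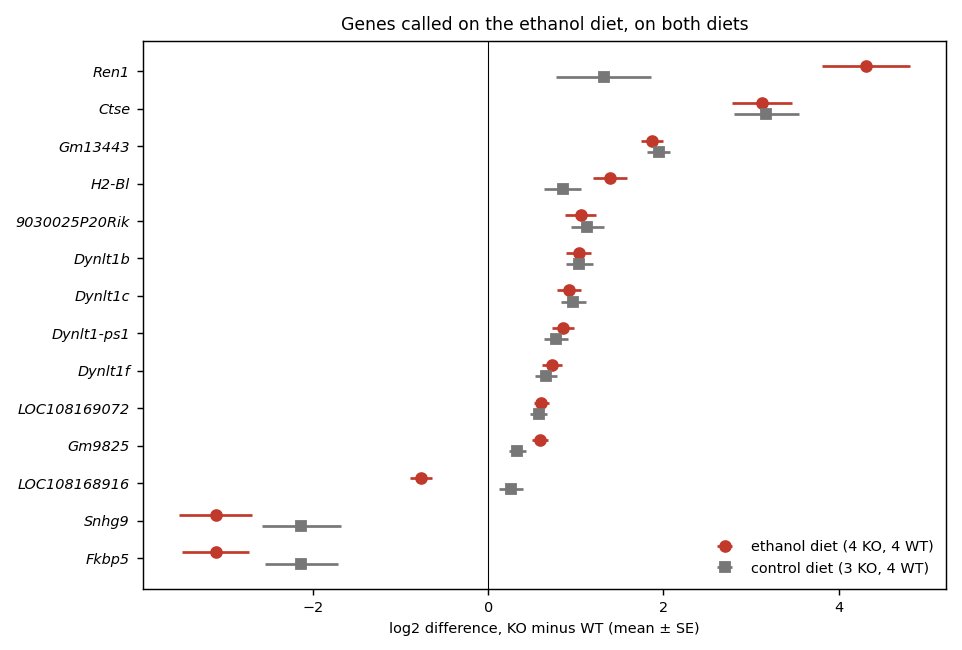
The log2 difference between KO and WT livers (horizontal axis, with SE) for the 14 genes called on the ethanol diet, on the ethanol diet (red, above) and on the control diet (grey, below). For 13 genes both points lie on the same side of 0, the exception is LOC108168916, and Ren1 shows the widest gap between diets (4.31 and 1.32).

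Chemokines and neutrophil markers did not pass the test across genes. Cxcl1, the chemokine that draws neutrophils through the receptor CXCR2, had 1.75, 24.4, 1.44 and 1.16 FPKM in KO livers, against 15.2, 77.9, 145 and 1.58 FPKM in WT livers. KO replicate 2 stood apart from the other KO livers and lay above WT replicates 1 and 4. WT replicate 4 lay among the low KO livers. The log2 difference was -2.59 with a wide 95% interval of -5.04 to -0.13 (limma adjusted p = 0.989; exact permutation p = 0.2, 2-sided). Of 12 chemokines tested 0 were called, 7 lay above 0 and 5 below, and the median was 0.06. Ccl6, a macrophage chemokine, had 4.62 ± 2.15 FPKM in KO livers and 7.05 ± 2.44 FPKM in WT livers (SD, n = 4 each). Among 6 neutrophil markers tested, 0 were called and all 6 lay below 0, with a median of -0.52. S100a8 and S100a9, the calprotectin subunits of neutrophils, had log2 differences of -1.07 and -1.11, with 95% intervals of -2.66 to 0.53 and -2.62 to 0.40.

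Among Hippo pathway genes, 1 of 21 tested had groups without overlap, against 2.44% of all genes, and none was called. Of 21 components tested 0 were called, and the median was -0.03. Tead1, a TEAD factor through which YAP binds DNA, had 1.54, 1.66, 4.68 and 2.41 FPKM in KO livers, against 7.35, 5.80, 8.54 and 5.16 FPKM in WT livers. The groups did not overlap, yet the log2 difference of -1.17 (95% interval -1.86 to -0.47) was not called (adjusted p = 0.601). On the control diet the difference of Tead1 was 0.25, and the interaction of -1.42 did not pass (adjusted p = 0.680). Of 15 YAP and TEAD target genes tested 0 were called, 9 lay below 0, and the median was -0.09. Ctgf, a matrix protein and common readout of YAP, had 1.05 ± 0.388 FPKM in KO livers and 2.09 ± 1.73 FPKM in WT livers (SD, n = 4 each), where WT replicate 3 alone reached 4.68. Amotl2, an inhibitor of YAP that is itself a target, differed by 0.13 with a 95% interval of -0.25 to 0.51.

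The partners and targets of FKBP51 were examined next. Among 24 genes of the glucocorticoid receptor, HSP90 and their co-chaperones, Fkbp5 was the 1 called gene and the median was -0.03. Hsp90b1, the HSP90 of the endoplasmic reticulum, differed by -0.49 and the co-chaperone Hsph1 by 0.57, neither called. Of 28 glucocorticoid receptor targets 0 were called, 19 lay above 0, and the median was 0.14, against -0.02 for all genes. The target with the lowest p was Tsc22d3, which encodes the leucine zipper protein GILZ. It had 47.0, 31.5, 36.5 and 29.5 FPKM in KO livers, against 21.1, 21.3, 15.4 and 18.9 FPKM in WT livers. All KO livers lay above all WT livers, and the log2 difference of 0.87 (95% interval 0.41 to 1.32) had an adjusted p of 0.337. On the control diet Tsc22d3 differed by -0.22, and the interaction of 1.08 did not pass (adjusted p = 0.489). Nfkbia, the inhibitor of NF-kB that glucocorticoids induce, had 23.5 ± 12.5 FPKM in KO livers and 14.7 ± 3.99 FPKM in WT livers (SD, n = 4 each), with overlap. Gadd45b, a stress-induced target, differed by 0.97 with an interval of -0.34 to 2.28.

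Acute phase and NF-kB genes had negative medians with wide spreads, and no member of the inflammatory lists was called. Of 31 acute phase proteins tested, the plasma proteins that the liver makes after an inflammatory signal, 25 lay below 0 with a median of -0.47. Steap4, a metalloreductase induced by cytokines, had 34.7, 69.6, 29.7 and 13.2 FPKM in KO livers, against 47.1, 218, 426 and 20.3 FPKM in WT livers. WT replicates 2 and 3 were the high livers and WT replicates 1 and 4 lay within the KO range, as for Cxcl1. Saa3, a serum amyloid A protein, differed by -1.46 with a 95% interval of -3.08 to 0.15. Serpina3c, a serine protease inhibitor, differed by 1.81, from -0.02 to 3.63, and by 4.69 on the control diet (adjusted p = 0.0702). In 32 genes of endotoxin and interleukin-1 sensing and NF-kB feedback the median was -0.16, with 25 below 0. Il1r1, the receptor of interleukin-1, had 24.2 ± 16.3 FPKM in KO livers and 65.7 ± 48.5 FPKM in WT livers (SD, n = 4 each). Bcl3, an atypical inhibitor of NF-kB, differed by -0.90 and Ly96, the partner of the endotoxin receptor TLR4, by -0.50 (adjusted p = 0.990 and 0.968). Complement and coagulation proteins had a median of 0.03 over 43 genes, and interferon-stimulated genes of -0.03 over 45. The 23 histocompatibility genes of the H2 list, which does not hold the called pseudogene H2-Bl, had a median of 0.08. The immediate early genes of the AP-1 family had a median of -0.01 over 22 members, with Junb at -0.81 (95% interval -1.95 to 0.32).

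Genes of ethanol handling and detoxification did not differ by the test. In the list of ethanol and acetaldehyde oxidation enzymes, with 20 tested, the median was 0.02. The list also holds superoxide dismutases, and its member with the lowest p, the mitochondrial Sod2, differed by -0.26. In 31 targets of the xenobiotic receptors CAR and PXR the median was 0.12. Cyp2b10, the cytochrome P450 most strongly induced through CAR, had 332, 398, 248 and 426 FPKM in KO livers, against 603, 159, 59.6 and 220 FPKM in WT livers, with overlapping ranges. The median was 0.08 for 32 NRF2 and glutathione genes, 0.10 for 21 glutathione S-transferases, 0.09 for 60 cytochrome P450 genes and -0.07 for 20 metallothionein and zinc transport genes. Cyp2c39, a cytochrome P450 of retinoic acid oxidation, had 82.1, 94.7, 274 and 117 FPKM in KO livers, against 2.32, 2.71, 36.5 and 289 FPKM in WT livers. WT replicate 4 exceeded every KO liver, and the log2 difference of 2.73 had a 95% interval of -0.12 to 5.58.

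No lipid gene of the lists below was called. Cholesterol synthesis and uptake genes had a median of 0.21, with 22 of 28 above 0 and 0 called. With a term for Xist in the fit the median was -0.02, with 15 of 28 below 0, and on the control diet it was -0.20. Fatty acid and triglyceride synthesis genes had a median of 0.00 over 30 genes, and Me1, the malic enzyme that supplies NADPH, differed by -0.80. The 44 genes of PPAR alpha, fatty acid oxidation and ketogenesis had a median of -0.06, and the 24 lipid droplet genes of -0.05. Fabp1, which carries fatty acids within hepatocytes, had 855, 568, 1686 and 679 FPKM in KO livers, against 857, 2201, 1830 and 1389 FPKM in WT livers (log2 difference -0.78, adjusted p = 0.989). Plin2, which coats lipid droplets, differed by -0.57 with an interval of -1.34 to 0.20. Apolipoproteins had a median of 0.06 over 30 genes and bile acid genes of 0.05 over 29. Fgfr4, the receptor through which FGF15 represses bile acid synthesis, differed by 0.38 and Baat, which conjugates bile acids, by -0.48, neither called (adjusted p = 0.868 and 0.974).

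Other hepatocyte functions had medians from -0.15 to 0.14 in the main fit, against -0.02 for all genes. They were 0.10 for 37 genes of the urea cycle and amino acid catabolism, 0.09 for 29 of one-carbon metabolism, -0.01 for 34 of glucose metabolism, 0.06 for 22 of iron handling, 0.08 for 21 of retinoid turnover and 0.02 for 18 of growth hormone and IGF signalling. Gnmt, which consumes S-adenosylmethionine, had 1340 ± 153 FPKM in KO livers and 838 ± 326 FPKM in WT livers (SD, n = 4 each; adjusted p = 0.875). Kmo, the kynurenine monooxygenase, had no overlap between groups and a difference of -0.54 (adjusted p = 0.912). The 20 major urinary protein genes had a median of -0.01 and the 47 liver genes known to differ between the sexes of 0.13. With a term for Xist these medians were -0.68, with 20 of 20 below 0, and -0.08, with 29 of 47 below 0. Pericentral hepatocyte genes had a median of 0.02 over 23, periportal genes of 0.10 over 21, and hepatocyte markers of -0.08 over 27. The list of secreted hepatokines, which also holds renin, had a median of -0.02 over 35, with Ren1 as the 1 called member. The clock genes had 0.12 over 22, p53 targets and cell cycle genes 0.14 over 21, the unfolded protein response -0.15 over 37 and heat shock genes 0.00 over 22, each with 0 called. Xbp1, the transcription factor of the unfolded protein response, differed by -0.67 with an interval of -1.48 to 0.14.

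Ribosomal protein genes had mostly negative differences of small size. Of 86 cytoplasmic ribosomal protein genes, 84 lay below 0 with a median of -0.20, 19 had an unadjusted p under 0.05, all 19 lower, and 0 were called. In 8 of the 86 the groups did not overlap. Over all genes tested the shares were 5.00% at an unadjusted p under 0.05 and 2.44% without overlap. Rpl34, a protein of the large subunit, had 52.2, 55.8, 53.8 and 67.4 FPKM in KO livers, against 112, 127, 82.9 and 79.3 FPKM in WT livers (log2 difference -0.77, adjusted p = 0.291). On the control diet the median of this list was 0.24, of the opposite sign. With FPKM rescaled to a common sum, which put the median of all genes at 0.07, the ribosomal median was -0.09 with 76 of 86 below 0. Oxidative phosphorylation subunits had a median of -0.11, with 70 of 77 below 0, and proteasome subunits of -0.09, with 31 of 37 below 0. Under the common sum, with the median of all genes at 0.07, these medians were 0.00 and 0.03. Less the median of all genes, oxidative phosphorylation was at -0.09 in the main fit and -0.07 under the common sum. Proteasome subunits were at -0.07 and -0.04 on the same measure. Autophagy and lysosome genes had a median of 0.01 over 41 genes. The lysosomal protease Ctsl had 251, 270, 208 and 276 FPKM in KO livers, against 313, 396, 537 and 303 FPKM in WT livers, without overlap and without a call (log2 difference -0.59, adjusted p = 0.728). The autophagy initiation factor Atg14 also had no overlap, with a log2 difference of -0.31 (adjusted p = 0.864).

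**Figure D5:**
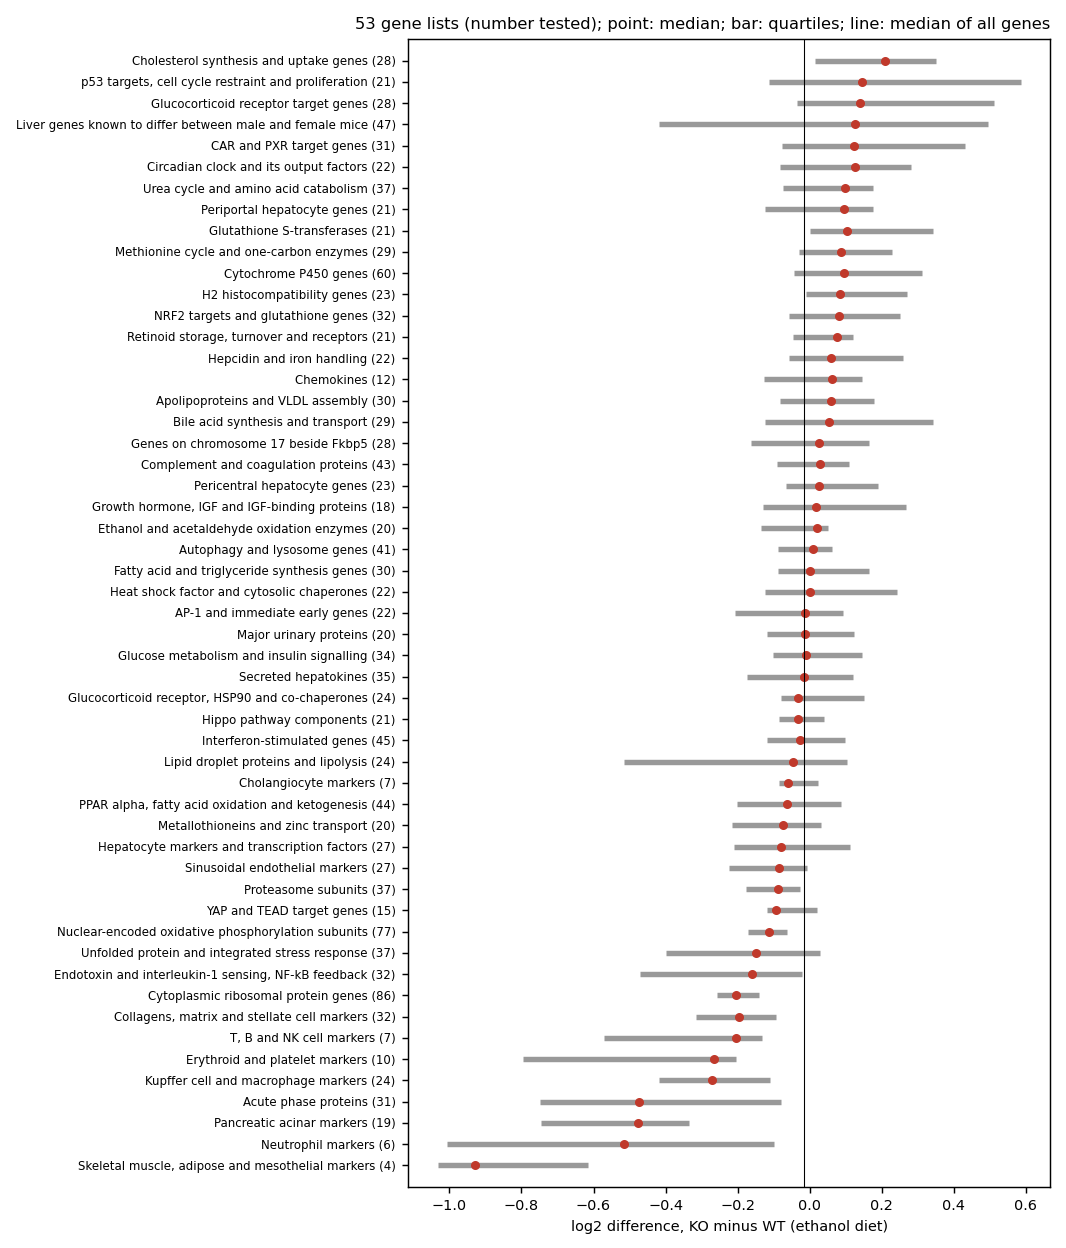
Median log2 difference between KO and WT livers on the ethanol diet (points) and quartiles (bars) of the tested members of 53 gene lists, with the number tested in brackets. Of the 53 medians, 35 lie within 0.1 of 0, 12 lie below -0.1 and 6 above 0.1, and 50 lists have no called member.

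Several marker lists of cells other than hepatocytes had negative medians, and since whole liver was sequenced, fewer cells of a type and less RNA per cell cannot be told apart. Kupffer cell and macrophage markers had a median of -0.27, with 21 of 24 below 0 and 0 called, and summed levels of 103 to 403 FPKM in KO livers and 141 to 311 FPKM in WT livers. Cd163, the scavenger receptor of haemoglobin, differed by -0.35. Collagen, matrix and stellate cell markers had a median of -0.20, with 27 of 32 below 0, and summed levels of 337 to 506 FPKM in KO livers and 353 to 706 FPKM in WT livers. The collagen gene Col3a1 differed by -0.52 with an SE of 0.22 (adjusted p = 0.974). Sinusoidal endothelial markers had a median of -0.08, with 21 of 27 below 0, and of 0.02 under the common sum, where all genes had 0.07. Less the median of all genes, the endothelial values were -0.06 and -0.05. Lymphocyte markers had a median of -0.20 over 7 tested of 26, and cholangiocyte markers of -0.06 over 7 tested of 17. Neutrophil markers summed to 26.7 to 951 FPKM in KO livers and 67.7 to 1643 FPKM in WT livers, and 11 of 18 stayed under 1 FPKM in all 8. Lcn2, which hepatocytes also make, gave 18.1 to 938 FPKM of that sum in KO livers and 59.6 to 1605 FPKM in WT livers. Mpo, another member of that list, was listed at 0 in all 8.

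RNA of other tissues was present at low levels. Pancreatic acinar markers summed to 4.23 to 11.3 FPKM in KO livers and 8.98 to 43.1 FPKM in WT livers. All 19 tested lay below 0, with a median of -0.48 and 0 called, and the median was -1.77 on the control diet. Cela2a, a pancreatic elastase, had 0.488, 0.287, 0.360 and 0.837 FPKM in KO livers, against 5.39, 0.812, 2.19 and 1.40 FPKM in WT livers. Erythroid and platelet markers had a median of -0.26, with 9 of 10 below 0, and summed to 194 to 971 FPKM in KO livers and 404 to 1167 FPKM in WT livers. The list of muscle, adipose and mesothelial markers had 4 tested of 20. Its members Krt8 and Krt18, which hepatocytes express too, differed by -1.03 each and were not called. The part of these markers in the results above was not tested. None of the 14 called genes belongs to the marker lists of other cell types or tissues used here. Those lists include none for stomach or kidney, the tissues named above for Ctse and Ren1.

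The number of called genes depended on single livers and on the fit, and 4 genes were called whichever library was left out: Fkbp5, Ctse, Ren1 and Gm13443. Without KO ethanol replicate 1 the count was 4, without replicate 3 it was 7 and without replicate 2 it was 8. A fit of only the 8 ethanol libraries called 2 genes, Fkbp5 and Gm13443, and rescaling to a common sum called 6, of which 4 were higher and 2 lower. Among only the 8 libraries that express Y-linked genes, 3 of them from KO ethanol and 2 from WT ethanol livers, 7 genes were called, 1 higher and 6 lower, and 1 was shared, Gm13443. There the difference was -3.36 for Fkbp5, 2.70 for Ctse and 3.85 for Ren1.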

How the data were processed

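Liver RNA of 15 mice was measured, and 8 libraries enter the comparison on ethanol. The authors deposited FPKM per gene and per isoform; the submitters' processing notes name TopHat, Cufflinks and Cuffdiff. The notes also name mm9, but 99.53% of 41241 matched symbols overlap their own gene on GRCm38, so coordinates are given on GRCm38, counted from 1. Versions and strand settings are not given in the sources used here.

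Differences were fitted here with limma 3.58.1 in R 4.3.3 on log2(FPKM + 1) over genes with 1 FPKM or more in at least 3 libraries. All 15 libraries entered as 4 group means with a trend in the variance and Benjamini-Hochberg adjustment over all genes tested. Every adjusted p is from this fit, and a gene is called where it is under 0.05. Single values were tested with an exact permutation test. The design assumed FPKM, so no count test was run. Tables and figures were made with Python 3.11.15.

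The genes named are Fkbp5, Cxcl1, called genes and, per list, members among the 4 with the lowest p; Pm20d1, Atp6v0c, Abca3 and called genes with provisional symbols or -ps1 were chosen after their values were seen. The comparison and the lists were chosen with earlier results of these data known. Replicate numbers do not pair the mice: same-numbered libraries had correlated deviations of 0.177, -0.016, -0.329 and 0.019. Alternatives were other pseudocounts, filters, scalings, fits and libraries left out. Fragment numbers are estimates from the peak of low FPKM values in transcripts of 3000 to 20000 bases. Their error, from counting, from placing that peak and from transcript length, was not estimated.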

Additional observations from a re-analysis of the deposited data

Results flagged for a closer look

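The 4 livers of each genotype were compared for 99 genes, which gives 198 groups, and 74 groups with a range of at least 1 log2 unit were screened for a liver apart. In 7 of them the highest or lowest liver stood far from the other 3, a pattern that chance gives in about 1 of 20 groups, so that several of the 7 may be chance. Cxcl1 had 24.4 FPKM in KO replicate 2, against 1.16 to 1.75 FPKM in the other KO livers. Ctgf had 4.68 FPKM in WT replicate 3, against 1.05 to 1.33 FPKM in the other WT livers. Per1, a clock gene that glucocorticoids induce, had 31.4 FPKM in KO replicate 4, against 7.39 to 9.05 FPKM in the other KO livers. Cyp26a1, which breaks down retinoic acid, had 4.15 FPKM in KO replicate 3, against 105 to 134 FPKM in the other KO livers. Alb was listed at 0.0 FPKM in KO replicate 3, against 13285 to 16352 FPKM in the other KO livers. Clps, a pancreatic colipase, had 1.72 FPKM in KO replicate 4, against 0 to 0.0976 FPKM in the other KO livers. Hbb-bs, a beta globin, had 332 FPKM in WT replicate 1, against 99.2 to 108 FPKM in the other WT livers.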

How the results depend on the processing

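The 14 calls on ethanol became 6 with a filter of 5 FPKM, 6 with a common sum of FPKM, 2 with only the 8 ethanol libraries, 22 with a term for Xist, and 0 with WT ethanol replicate 4 placed with KO, where Fkbp5 differed by -2.42 (adjusted p = 0.241) and Cd163 by 0.04. Leaving out 1 library at a time gave 4 to 15 calls, with 4 without KO ethanol replicate 1, 8 without replicate 2 and 7 without replicate 3. The interaction gave 0 to 43 calls, with 43 without KO control replicate 1 and 1 without WT ethanol replicate 4; it gave 1 call with no filter and 7 with library weights. Alb differed by 0.05 with zeros as missing, and by -4.62 to 0.05 when 1 library was left out. With a replicate block 9 genes were called, 7 of them higher; the numbers do not pair the mice. Alternatives added after seeing the data were chromosome 17 left out, with 6 calls, and only the 8 libraries that express Y-linked genes, with 7 calls and 2 in the interaction, Fkbp5 at -3.36 (adjusted p = 0.066) and Alb at 0.08. Apart from what the settings remove (genes, libraries), the causes were not tested. Over these alternatives the 14 called genes gave 421 values, of which 308 were still called and 113 were not, all in the same direction; among the other genes named, 11 values were called. Ctse and Ren1 stayed near the limit of detection in WT livers, and the 95% interval of a typical gene spans 0.35 on either side in log2.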
